A study of Mus musculus with 12 samples.

Results

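Tbx4, Tbx5, Tbx15, Tbx18, Pitx1, Emx2, Shox2, Hand2, Meis1 and Meis2 are transcription factors that give the limb buds and other regions of the embryo their identity. These 10 genes, of 37991 in the count files, were chosen by name for that role, with earlier results of these data known, and their levels were followed in mouse embryonic fibroblasts (MEFs), the fibroblast-like cells that grow out of a minced embryo. Of the 10, 9 had enough counts to be tested, and Shox2 had no count in any sample.

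Messenger RNA was sequenced from primary MEFs of the FVB strain at passage 3, grown from embryos of 13.5 days. The cells were wild-type (WT) or homozygous for the E2f1 3KR allele (3KR), a knock-in that replaces the acetylated lysines of the cell-cycle transcription factor E2F1 with arginine. Each genotype was either left untreated or exposed for 3 h to neocarzinostatin (NCS), a drug that breaks DNA as radiation does, at 250 ng/ml, which gave 4 groups of 3 samples (n = 3 throughout). The design asks how the 3KR allele alters gene expression before and after DNA damage. The parents of the embryos carried their allele on 1 or both chromosomes, and all cultures were kept at low oxygen. The labels do not say whether samples with different numbers came from different embryos, so p-values measure the spread between these samples, which may be technical.

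Limb buds form as mesenchyme covered by ectoderm. In the mesenchyme Tbx5 is known for starting the forelimb, Pitx1 and its target Tbx4 for the hindlimb, Hand2 for the posterior side of the bud, where it lies upstream of Shh, and Meis1, Meis2 and Shox2 for its proximal part. T-box proteins bind DNA through the domain that gives them their name, Hand2 is a basic helix-loop-helix protein that pairs with E proteins, and Meis1 and Meis2 are TALE homeodomain proteins that pair with Hox proteins. Cultured fibroblasts are known to keep part of the regional code of the place they came from.

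Total counts per sample ranged from 33203757 to 45279321, and a limit of 3 counts corresponded to 0.0663 to 0.0904 CPM (counts scaled to a common library size). E2f1 itself ranged from 1042 to 1296 normalized counts over the 12 samples, and since the knock-in changes codons and not the gene's dose, its level does not check the genotype labels. In both WT groups the sample numbered 3 stood apart, since the chi-square statistic of its counts against either group mate, divided by the number of genes, was 7.59 to 9.40, where no other pair within a group exceeded 2.33. All 11 fibroblast markers were tested, and Col1a1, Col3a1 and Vim among them were abundant. The level differed widely between these markers, since in untreated WT samples Vim was at 146200 to 148500 normalized counts and Fap at 405.7 to 480.5. Xist, the RNA of the inactive X chromosome, was at 32.3 to 62.5 normalized counts in WT samples and at 30590 to 35630 in 3KR samples, and Y-linked Ddx3y was at 5370 to 5822 in WT and 7.0 to 16.2 in 3KR. The WT samples therefore read as male and the 3KR samples as female, and in every comparison of genotypes below, genotype, sex and the embryos used cannot be told apart. In bulk RNA a smaller share of cells of one kind also cannot be told apart from less RNA per cell.

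Promoter sequence in the RefSeq table (GRCm38.p6) was found for 7 of the 10 genes, namely Tbx4, Tbx18, Emx2, Shox2, Hand2, Meis1 and Meis2. Each window runs from 250 bases before to 50 bases after the annotated start. Shown here are 3 of the genes that were at least 2-fold higher in 3KR MEFs and Meis2, the gene with the largest called change after NCS, so that the sequences of both kinds can be compared. Capitals mark the E-box CATCTG, of the kind that Hand2 binds with its partners, the letters TATAAA of a TATA box and the CCAAT box, each read on both strands, and no marked site overlaps another.
Tbx4 (chr11:85896515-85896814, plus strand): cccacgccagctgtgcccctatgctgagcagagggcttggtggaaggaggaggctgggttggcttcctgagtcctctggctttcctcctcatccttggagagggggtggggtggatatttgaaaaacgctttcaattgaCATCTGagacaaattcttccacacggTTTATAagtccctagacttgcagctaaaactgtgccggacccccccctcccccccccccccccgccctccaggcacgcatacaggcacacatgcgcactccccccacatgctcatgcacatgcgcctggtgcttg
Hand2 (chr8:57320733-57321032, plus strand): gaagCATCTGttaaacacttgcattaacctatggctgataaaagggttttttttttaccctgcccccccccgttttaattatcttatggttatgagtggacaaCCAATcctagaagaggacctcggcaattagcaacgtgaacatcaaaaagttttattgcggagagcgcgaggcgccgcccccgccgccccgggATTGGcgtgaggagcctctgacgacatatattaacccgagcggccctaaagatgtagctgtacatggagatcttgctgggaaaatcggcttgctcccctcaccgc
Emx2 (chr19:59458440-59458739, plus strand): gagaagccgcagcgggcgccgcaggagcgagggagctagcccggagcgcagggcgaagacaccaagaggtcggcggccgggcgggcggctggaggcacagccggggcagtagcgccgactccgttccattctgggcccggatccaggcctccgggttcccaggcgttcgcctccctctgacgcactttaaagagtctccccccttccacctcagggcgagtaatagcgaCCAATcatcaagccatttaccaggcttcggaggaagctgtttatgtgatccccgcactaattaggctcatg
Meis2 (chr2:116064570-116064869, minus strand): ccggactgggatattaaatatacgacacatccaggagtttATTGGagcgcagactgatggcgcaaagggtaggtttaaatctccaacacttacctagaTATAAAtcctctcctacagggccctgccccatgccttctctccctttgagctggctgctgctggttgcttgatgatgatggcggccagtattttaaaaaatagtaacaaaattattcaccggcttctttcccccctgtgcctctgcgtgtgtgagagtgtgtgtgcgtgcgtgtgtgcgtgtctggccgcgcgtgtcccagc
The Tbx4 window belongs to a start that lies 10343 bases inside the gene as GENCODE M21 draws it, so it is not the only start annotated. The starts of the Meis2 and Emx2 windows lie 1220 and 318 bases inside their genes, while that of Hand2 is the gene start.

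The letters were counted in all 32851 promoters of the table for comparison. CATCTG stood in 3 of the 7 windows (Hand2, Tbx4 and Tbx18), against 17.2% of all promoters. TATAAA stood in 3 (Meis2, Shox2 and Tbx4), against 13.6%, and CCAAT in 5 (Meis2, Hand2, Tbx18, Meis1 and Emx2), against 37.4%. The Meis site TGACAG stood in Tbx18 alone, against 19.2% of all promoters. None of the 7 windows held the E2F letters TTTCGCGC, TTTGGCGC or TTTCCCGC, of which at least 1 form stood in 1.84% of all promoters, and none held the T-box site AGGTGT (13.7%) or the Pitx site TAATCC (7.06%). These matches describe the letters of the windows and were not tested as binding sites. The median window held 52.7% G and C and 7 CG dinucleotides over all promoters. The Emx2 window was the highest of the 7 in both, with 64.3% and 26, and the other windows held 50.3% to 59.0% and 8 to 17.

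Per kilobase of exon, Tbx15 was the highest of the 10 genes, with a mean over the 4 groups of 855.9 normalized counts per kilobase, above 85.7% of the 14794 tested genes with a known length. Tbx18 followed at 236.5, Pitx1 at 147.7, Emx2 at 142.7, Meis1 at 117.8, Tbx4 at 110.0, Meis2 at 101.5, Hand2 at 67.5 and Tbx5 at 49.5 normalized counts per kilobase, where the median tested gene was at 163.7. The order depended on the group. In untreated WT MEFs Meis1 (126.0 ± 2.34 SD) and Meis2 (118.0 ± 7.82 SD) lay above Emx2, Hand2, Pitx1, Tbx4 and Tbx5 on this scale, while in untreated 3KR MEFs Pitx1 (297.1 ± 10.1 SD), Emx2 (217.5 ± 8.20 SD) and Tbx4 (214.3 ± 5.09 SD) lay above both. Dividing by the longest transcript in place of all exons moved Meis2 most, to 222.3 per kilobase, so its place among these genes depends on the length used.

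**Figure D1:**
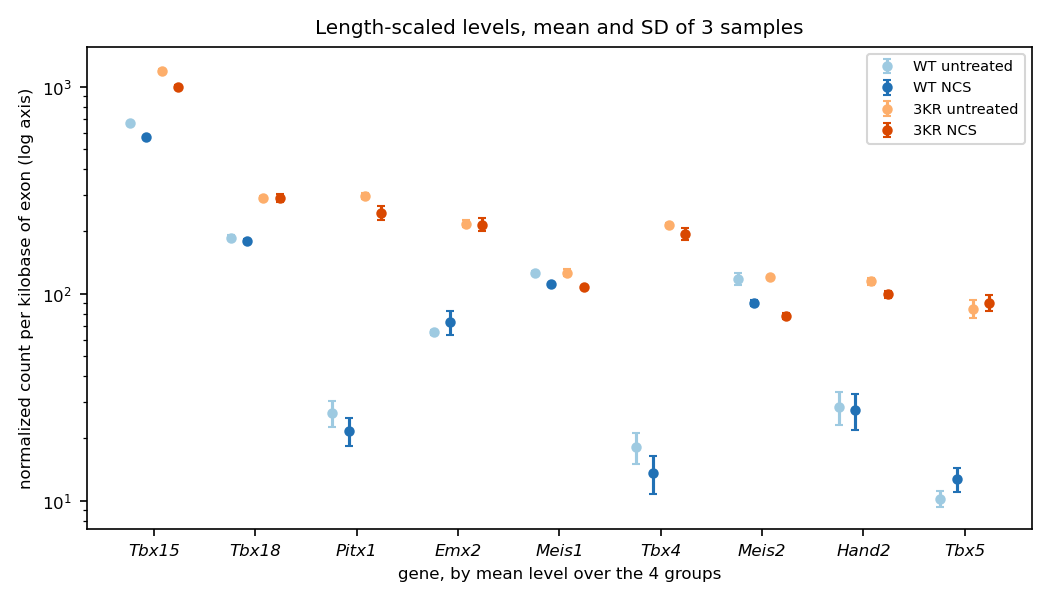
Normalized counts per kilobase of exon (log axis) of the 9 genes with counts, as the mean and SD of the 3 samples of each group, ordered by the mean over the 4 groups. Tbx15 lies highest in every group, and Pitx1, Tbx4, Hand2, Tbx5 and Emx2 lie lower in both WT groups than in both 3KR groups.

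Without treatment, 7 of the 9 tested genes were higher in 3KR than in WT MEFs (edgeR quasi-likelihood F test, Benjamini-Hochberg adjusted over 15327 genes, threshold 0.05) and none was lower. These were Tbx4, Tbx5, Tbx15, Tbx18, Pitx1, Emx2 and Hand2, while Meis1 and Meis2 did not pass. The background of this comparison was high, since 45.7% of all tested genes were called in either direction, 22.1% as higher and 23.6% as lower, and the 3 samples of each group did not overlap for 53.5% of all genes as for 7 of these 9. At least 2-fold and called higher were 5 of the 9 genes, against 4.36% of all tested genes. The median log2 fold change of the 9 was 1.73, against 0.00 for all tested genes.

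The hindlimb pair showed the widest gap. Pitx1, the homeodomain protein that sets hindlimb identity, is on chromosome 13 and had 58.8, 78.1 and 73.5 normalized counts in untreated WT samples, against 808.2, 800.8 and 758.3 in untreated 3KR samples. All 3KR samples lay above all WT samples, and Pitx1 was 11.3-fold higher in 3KR (log2 fold change 3.50 ± 0.10 SE, adjusted p = 1.91e-18). Values with an SE are log2 fold changes throughout, or differences of them. Tbx4, its T-box target on chromosome 11, had 68.8, 49.7 and 66.2 normalized counts in WT and 747.7, 724.9 and 713.8 in 3KR. It was 11.7-fold higher (3.55 ± 0.11 SE, adjusted p = 5.11e-18), again without overlap.

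After NCS the same gap was present. Pitx1 had 48.2, 59.0 and 65.7 normalized counts in WT and 636.0, 613.7 and 707.2 in 3KR, 11.3-fold apart (3.50 ± 0.11 SE, adjusted p = 7.60e-18). Tbx4 had 36.9, 56.2 and 45.8 in WT and 707.9, 656.9 and 616.2 in 3KR, 14.1-fold apart (3.82 ± 0.12 SE, adjusted p = 5.90e-18). Raw counts of Tbx4 in WT samples were 36 to 83, where counting error alone gives a coefficient of variation of 12.4% to 14.5% in the 2 WT groups. The spread between WT samples was 16.8% and 20.9%, so the WT levels were measured less firmly than those of 3KR samples, whose raw counts were 563 to 785.

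Tbx5, the forelimb gene, which also acts in the heart and lies on chromosome 5, was the scarcest of the 9 per kilobase, with 52.2, 43.6 and 47.6 normalized counts in untreated WT samples. In untreated 3KR samples it had 380.9, 438.9 and 364.6, which made it 8.15-fold higher (3.03 ± 0.13 SE, adjusted p = 1.96e-15). The forelimb gene was thus higher in 3KR MEFs along with the hindlimb genes. After NCS it had 65.6, 61.8 and 50.8 in WT and 391.9, 463.2 and 415.6 in 3KR, 7.11-fold apart (2.83 ± 0.12 SE, adjusted p = 4.86e-15).

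The ratio of Tbx4 to Tbx5 per kilobase, taken within each sample, was 1.57 to 1.91 in untreated WT and 2.27 to 2.70 in untreated 3KR samples. It was 0.773 to 1.25 in WT and 1.95 to 2.48 in 3KR samples after NCS. The genotypes did not overlap in this ratio under either treatment, and no test was made, because an exact permutation of 6 samples in 2 groups of 3 gives no p below 0.10. The ratio of Pitx1 to Tbx4 was 1.10 to 2.01 in untreated WT and 1.36 to 1.42 in untreated 3KR samples, so the genotypes overlapped.

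Hand2, the posterior limb bud factor, also known from the heart and sympathetic neurons and located on chromosome 8, had 62.1, 57.8 and 80.7 normalized counts in untreated WT samples and 264.0, 282.9 and 261.9 in untreated 3KR samples. It was 4.02-fold higher in 3KR (2.01 ± 0.13 SE, adjusted p = 1.21e-11). After NCS it had 62.5, 77.4 and 52.7 in WT and 230.9, 243.9 and 226.4 in 3KR, 3.62-fold apart (1.85 ± 0.14 SE, adjusted p = 1.08e-10). The lowest 3KR sample stood above the highest WT sample under both treatments.

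Emx2, a homeodomain protein of the forebrain, the urogenital tract and the shoulder blade, lies on chromosome 19. It had 198.8, 189.7 and 198.7 normalized counts in untreated WT samples and 646.0, 632.3 and 680.1 in untreated 3KR samples, 3.32-fold apart (1.73 ± 0.09 SE, adjusted p = 4.50e-14). After NCS it had 238.8, 185.3 and 229.9 in WT and 616.7, 625.4 and 700.0 in 3KR, 2.98-fold apart (1.57 ± 0.09 SE, adjusted p = 2.97e-13). The 3KR samples lay above all WT samples under both treatments.

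The antisense RNA Emx2os, which starts 263 bases from Emx2 on the other strand and shares 264 exonic bases with it, had 25.9 to 31.5 normalized counts in untreated WT and 81.8 to 101.8 in untreated 3KR samples. It too was higher in 3KR (1.57 ± 0.19 SE, adjusted p = 3.08e-07). The libraries were stranded, but the strand setting of the counting is not given in the sources used here, so reads of the shared bases may have been assigned to either gene. The part of such reads in the Emx2 level was not tested.

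Tbx15 and Tbx18, T-box genes of the trunk dermis, the limb girdles and, for Tbx18, the epicardium, differed less. Tbx15, on chromosome 3, had 2498, 2530 and 2456 normalized counts in untreated WT and 4346, 4562 and 4456 in untreated 3KR samples, 1.78-fold apart (0.83 ± 0.03 SE, adjusted p = 8.38e-16). After NCS the values were 2099, 2141 and 2146 in WT and 3696, 3727 and 3824 in 3KR, 1.76-fold apart (0.82 ± 0.03 SE, adjusted p = 2.30e-15). Its 4 groups followed the order untreated 3KR, 3KR after NCS, untreated WT and WT after NCS, and no neighbours in that order overlapped.

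Tbx18, on chromosome 9, had 905.5, 870.4 and 858.0 normalized counts in untreated WT and 1337, 1358 and 1403 in untreated 3KR samples, 1.55-fold apart (0.63 ± 0.05 SE, adjusted p = 1.63e-10). After NCS it had 865.1, 830.7 and 846.8 in WT and 1437, 1351 and 1324 in 3KR, 1.62-fold apart (0.69 ± 0.05 SE, adjusted p = 4.40e-11). The genotypes were apart, whereas the treatments overlapped within each genotype. Tbx15 exceeded Tbx18 per kilobase by 3.47 to 3.66 times in untreated WT and 4.0 to 4.23 times in untreated 3KR samples.

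**Figure D2:**
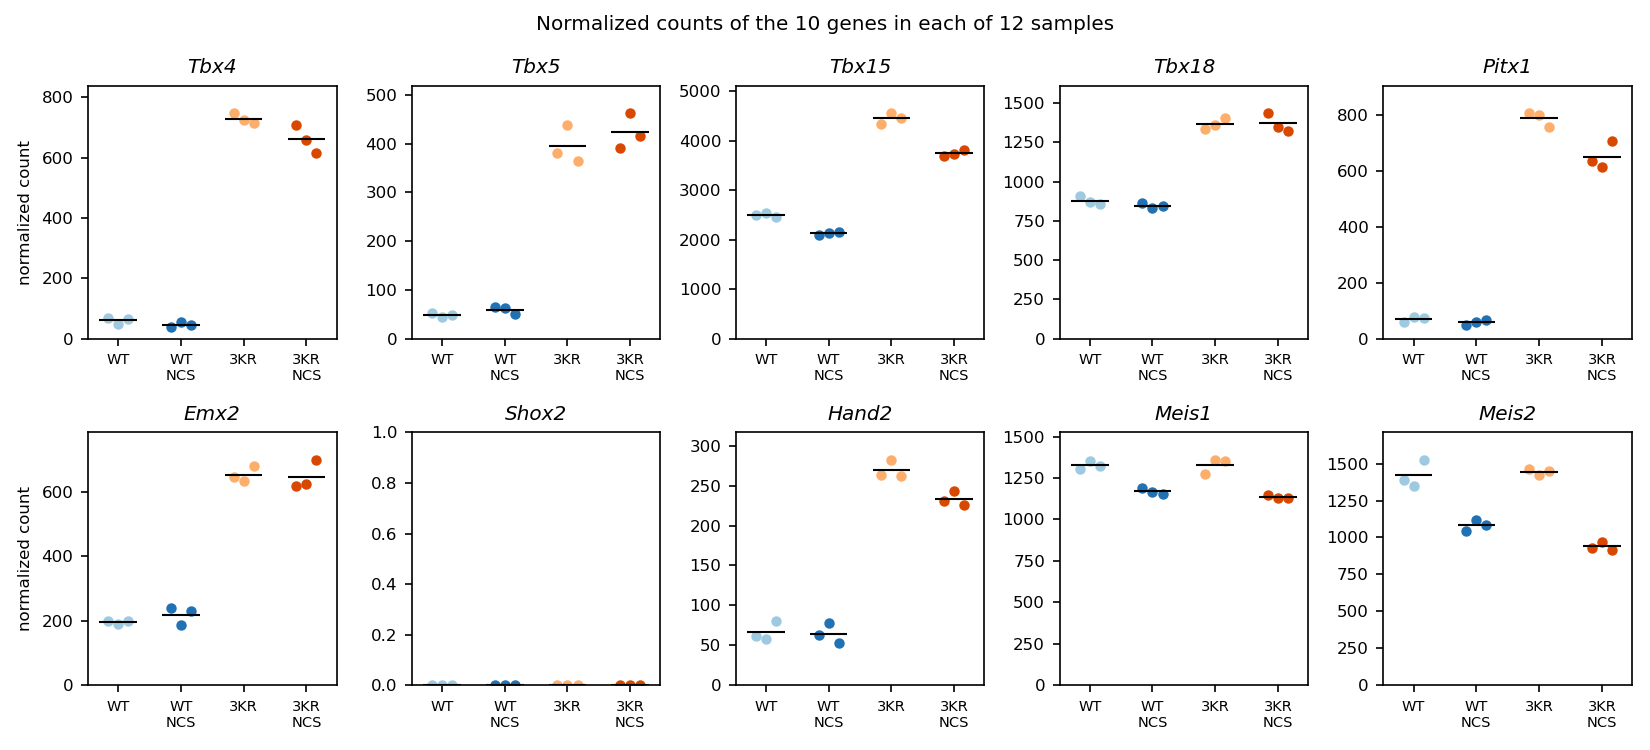
Normalized counts of the 10 genes (linear axes from 0, 1 panel per gene) in the 3 samples of each group, as points, with the group mean as a line. In 7 panels every 3KR sample lies above every WT sample, Meis1 and Meis2 lie lower after NCS in both genotypes and overlap between the untreated genotypes, and Shox2 is at 0 in all 12 samples.

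Meis1 and Meis2, the TALE partners of Hox proteins, showed no called difference between untreated genotypes. Meis1, on chromosome 11, had 1303, 1352 and 1326 normalized counts in WT and 1273, 1362 and 1355 in 3KR samples. The log2 fold change was 0.00 ± 0.04 SE (adjusted p = 0.978), with a 95% interval from -0.09 to 0.09, and the groups overlapped. Meis2, on chromosome 2, had 1388, 1348 and 1528 in WT and 1467, 1423 and 1451 in 3KR samples, a log2 fold change of 0.02 ± 0.05 SE (adjusted p = 0.766, 95% interval -0.08 to 0.12). With these intervals a genotype difference as large as that of Tbx18 lies outside what the untreated samples allow for either gene.

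After NCS, 8 of the 9 tested genes differed between genotypes, 7 higher and 1 lower in 3KR, against 46.5% of all tested genes called in either direction, 22.9% higher and 23.6% lower. The 3 samples of each group did not overlap for all 9, against 54.3% of all genes, and 5 of 9 were at least 2-fold higher, against 3.88%. The median log2 fold change of the 9 was 1.58, against 0.00 for all tested genes. The gene that was lower was Meis2, with 1045, 1116 and 1085 normalized counts in WT and 931.7, 970.7 and 916.0 in 3KR (-0.21 ± 0.05 SE, adjusted p = 0.00295). Meis1 had 1190, 1163 and 1155 in WT and 1148, 1132 and 1128 in 3KR, which did not overlap but did not pass the test (-0.04 ± 0.05 SE, adjusted p = 0.491). The comparisons before and after NCS use different samples of each genotype.

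**Figure D3:**
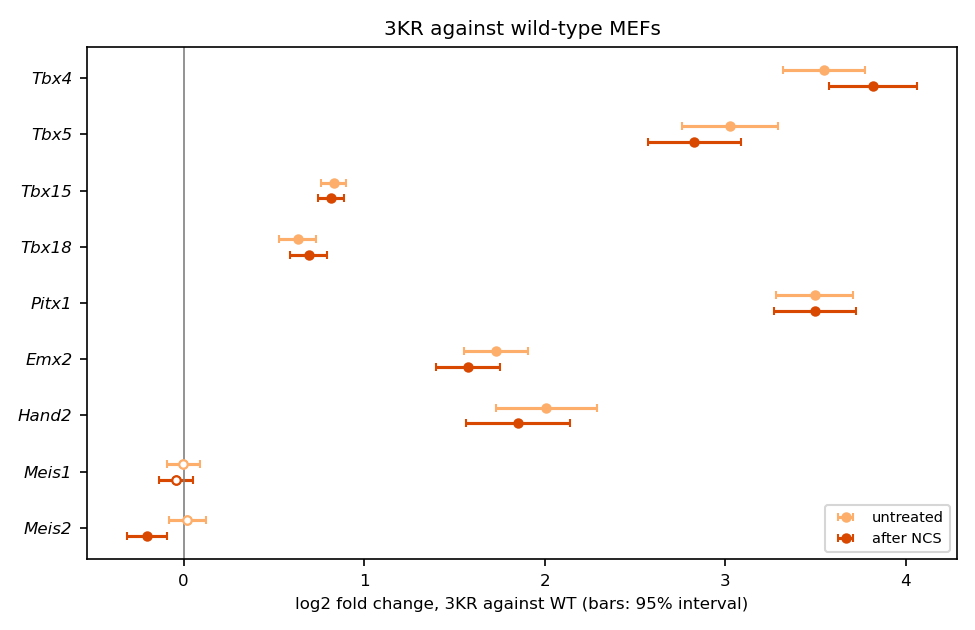
Log2 fold change of 3KR against WT MEFs for the 9 tested genes, untreated and after NCS, with 95% intervals, and with open points where the adjusted p missed 0.05. Tbx4, Pitx1 and Tbx5 lie highest and Meis1 and Meis2 lie near 0, Meis2 slightly below it after NCS.

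Leaving out both WT samples numbered 3, which stand apart, gave 7 genes called without treatment and 8 after NCS, and the untreated log2 fold changes of the called genes were then 0.62 to 3.60. The replicate block and the DESeq2 Wald test gave these 2 counts as well.

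Shox2, a homeodomain gene of the proximal limb and the sinoatrial node on chromosome 3, had 0 counts in all 12 samples. A count of 0 allows up to 3 counts per sample, at most 0.0904 CPM, for counting error only. Since all values were equal, no test between groups could be made. The gene Rsrc1, on the opposite strand, shares 153 of the 3311 exonic bases annotated for Shox2 and starts 381 bases from it. Rsrc1 had 1004 to 1063 normalized counts in untreated WT and 1253 to 1316 in untreated 3KR samples. Whether the counting of overlapping genes set the 0 was not tested.

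The NCS comparisons gave smaller changes, all of them below 2-fold. In WT MEFs 3 of the 9 genes fell and none rose, against 26.7% of all tested genes called in either direction and 12.4% lower, and in 3KR MEFs 4 fell and none rose, against 30.8% and 15.0%. The treated and untreated samples did not overlap for 3 genes in WT (35.1% of all genes) and for 6 in 3KR (47.6%). The median log2 fold change of the 9 was -0.19 in WT and -0.20 in 3KR, against 0.01 and 0.00 for all tested genes.

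Meis2 fell the most among the genes called. From the untreated values given above it went to 1045, 1116 and 1085 normalized counts in WT, a log2 fold change of -0.40 ± 0.05 SE (adjusted p = 2.57e-06), and to 931.7, 970.7 and 916.0 in 3KR, a log2 fold change of -0.62 ± 0.05 SE (adjusted p = 2.48e-09). All treated samples lay below all untreated samples of their genotype. The difference between the genotypes in this response was -0.23 ± 0.07 SE on the log2 scale and did not pass (adjusted p = 0.0932). It passed with the sample number within each genotype as a replicate block (-0.23, adjusted p = 0.0328), without the untreated WT sample numbered 3 (-0.28, adjusted p = 0.0105) and without both WT samples numbered 3 (-0.28, adjusted p = 0.00389), and over all alternatives its adjusted p ran from 0.00389 to 0.214. It was lower in 3KR in each of these fits.

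Meis1 fell by less, and by a similar amount in both genotypes. Its log2 fold change was -0.19 ± 0.05 SE in WT (adjusted p = 0.00327) and -0.23 ± 0.05 SE in 3KR (adjusted p = 5.34e-04), and the difference between them was -0.04 ± 0.06 SE (adjusted p = 0.820, 95% interval -0.17 to 0.09). The ratio of Meis1 to Meis2 per kilobase was 0.993 to 1.15 in untreated WT and 1.19 to 1.30 in treated WT samples, and 0.992 to 1.10 in untreated 3KR and 1.33 to 1.41 in treated 3KR samples. Treated and untreated samples were thus apart in this ratio in both genotypes.

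Tbx15 fell in both genotypes as well, with log2 fold changes of -0.23 ± 0.03 SE in WT (adjusted p = 1.98e-05) and -0.25 ± 0.03 SE in 3KR (adjusted p = 3.16e-06). The difference between genotypes was -0.01 ± 0.05 SE (95% interval -0.11 to 0.09). Its close relative Tbx18 showed no called response, with log2 fold changes of -0.06 ± 0.05 SE in WT (adjusted p = 0.467) and 0.01 ± 0.05 SE in 3KR (adjusted p = 0.936).

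Pitx1 was called lower in 3KR MEFs (-0.27 ± 0.08 SE, adjusted p = 0.00798), where the treated and untreated samples did not overlap, but not in WT (-0.27 ± 0.15 SE, adjusted p = 0.217). The 2 changes were nearly equal in size, and the difference between them was 0.00 (adjusted p = 0.9997), so the genotypes were not shown to differ. The call in 3KR rested on narrow ground, since without the treated 3KR sample numbered 2 it was lost (-0.23, adjusted p = 0.0508).

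Tbx4 had a log2 fold change of -0.41 ± 0.17 SE in WT (adjusted p = 0.0781) and -0.14 ± 0.08 SE in 3KR (adjusted p = 0.195). The WT change passed without the untreated WT sample numbered 2 (-0.54, adjusted p = 0.0299) and without the treated WT sample numbered 2 (-0.59, adjusted p = 0.0310). Hand2 in 3KR changed by -0.20 ± 0.11 SE (adjusted p = 0.192), and its treated and untreated samples did not overlap there. Tbx5 had values of 0.30 ± 0.17 SE in WT and 0.10 ± 0.10 SE in 3KR, and Emx2 of 0.15 ± 0.10 SE and -0.01 ± 0.07 SE, none of which passed.

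None of the 9 genes was called for a difference between the genotypes in the NCS response by edgeR, against 3.73% of all tested genes, and none was by the DESeq2 Wald test. At an unadjusted p under 0.05 the edgeR count was 1 gene, Meis2, and 2499 of all tested genes.

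**Figure D4:**
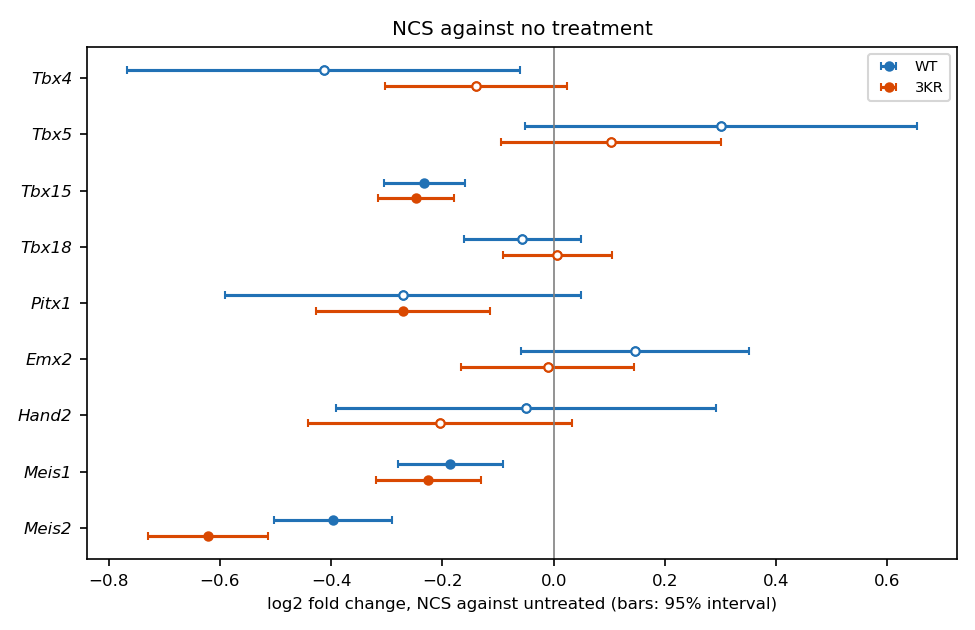
Log2 fold change of NCS against no treatment for the 9 tested genes in WT and 3KR MEFs, with 95% intervals and open points where the adjusted p missed 0.05. Tbx15, Meis1 and Meis2 lie below 0 with closed points in both genotypes, Pitx1 does so in 3KR, and the intervals of Tbx4, Tbx5, Pitx1 and Hand2 are widest in WT, where their counts were lowest.

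Other transcription factors of limb and face mesenchyme were taken from a list of 31 genes, 30 of them in the files and 22 tested. Of these, 13 were higher and 4 lower in untreated 3KR MEFs and 5 did not pass, with a median log2 fold change of 0.50, where the median of all tested genes was 0.00 and the shares called were 22.1% and 23.6%. Lhx9, a LIM-homeodomain gene of the distal limb bud, rose from 155.6 ± 8.0 SD normalized counts in WT to 767.6 ± 28.8 SD in 3KR (2.30 ± 0.08 SE, adjusted p = 1.48e-17), and Msx1, a homeobox gene of limb and facial mesenchyme, from 204.7 ± 17.1 SD to 883.2 ± 34.4 SD (2.10 ± 0.08 SE, adjusted p = 1.47e-16). Prrx1, a general limb mesenchyme gene, differed by 0.68 ± 0.03 SE (adjusted p = 3.01e-16). Picked after the values were seen, Isl1, which marks the early hindlimb field, had 1.04 to 4.14 normalized counts in untreated WT and 50.9 to 65.5 in untreated 3KR samples, and Lmx1b, the dorsal limb gene, had 32.5 to 52.8 and 266.4 to 321.5. Raw counts of Isl1 were 1 to 5 in untreated WT and 3 to 6 in treated WT samples. Isl1 passed the filter on low counts only through its 3KR samples, so its place among the 13 was set in advance. Of the 4 that were lower, also picked after the values were seen, Dlx1, a homeobox gene of the jaw arches, had 169.8 to 200.9 in untreated WT and 30.9 to 34.3 in untreated 3KR samples. Msx2, a relative of Msx1 in the limb bud, had 690.3 to 751.7 and 296.4 to 309.9, and Dlx2 had 569.2 to 671.7 and 273.7 to 352.6. After NCS, 13 of the 22 were higher and 4 lower, against 22.9% and 23.6% of all tested genes, and the median log2 fold change was smaller, at 0.36.

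Transcription factors of trunk and visceral mesenchyme showed the other balance. Of 33 listed genes 30 were tested, 7 were higher and 17 lower in untreated 3KR MEFs and 6 did not pass, with a median log2 fold change of -0.54. The shares of all tested genes were 22.1% higher, close to the 7 of 30, and 23.6% lower. Foxd1, known from kidney stroma and facial mesenchyme, was at 2271 ± 70.0 SD normalized counts in WT and 345.4 ± 8.10 SD in 3KR (-2.72 ± 0.06 SE, adjusted p = 5.73e-21). Zic1, a zinc finger gene of the dorsal trunk, differed by -1.72 ± 0.06 SE (adjusted p = 1.19e-17) and Nr2f1, an orphan nuclear receptor, by -1.72 ± 0.06 SE (adjusted p = 2.16e-16). After NCS, 7 of the 30 were higher and 15 lower, against 22.9% and 23.6% of all tested genes. The median log2 fold change of this list was then nearer 0, at -0.30.

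In the rest of the T-box family 6 of 13 genes were tested, with 3 higher, 2 lower and 1 not called in untreated 3KR and a median of -0.20, where 22.1% of all tested genes were higher and 23.6% lower. Tbx1, a gene of the pharyngeal arches, differed by -1.69 ± 0.13 SE (adjusted p = 1.14e-10) and Tbx20, a heart gene, by -1.45 ± 0.23 SE (adjusted p = 1.25e-05), while Tbx3, a gene of the limb bud margins, differed by 0.38 ± 0.06 SE (adjusted p = 1.17e-05). Of 16 TALE family genes 14 were tested, with 7 higher, 5 lower and 2 not called and a median of 0.08, beside the same shares of all genes. Irx1 rose by 1.89 ± 0.05 SE (adjusted p = 1.15e-18) and Irx3 by 0.53 ± 0.05 SE (adjusted p = 1.91e-08). Among the 3 E proteins that pair with Hand2, Tcf4 differed by 0.23 ± 0.03 SE (adjusted p = 5.45e-06), and Tcf12 (0.06) and Tcf3 (-0.04) did not pass.

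Of 26 limb bud signals 22 were tested, with 10 higher, 7 lower and 5 not called and a median of 0.14, where 45.7% of all tested genes were called in either direction. Raw counts of Fgf9 were 5 to 8 in untreated WT, and those of Bmp7 were 3 to 6 in untreated 3KR samples, where Wnt3 had 1 each. Fgf9, Bmp7 and Wnt3 passed the filter on low counts only through the other genotype, so their directions were set in advance. Shh, the posterior signal downstream of Hand2, and Fgf4, Fgf8 and Wnt7a of the limb ectoderm did not pass the filter on low counts. Cyp26b1, which clears retinoic acid from the distal limb, was higher by 1.27 ± 0.04 SE (adjusted p = 1.33e-17). Grem1, a secreted BMP antagonist, was lower by a log2 fold change of -1.06 ± 0.03 SE (adjusted p = 1.14e-17), and Dusp6, a target of FGF signalling, by -0.99 ± 0.05 SE (adjusted p = 2.36e-14). After NCS the same lists gave 2 higher and 2 lower of 6 T-box genes, 4 and 5 of 14 TALE genes and 10 and 8 of 22 signals, against 22.9% and 23.6% of all tested genes.

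**Figure D5:**
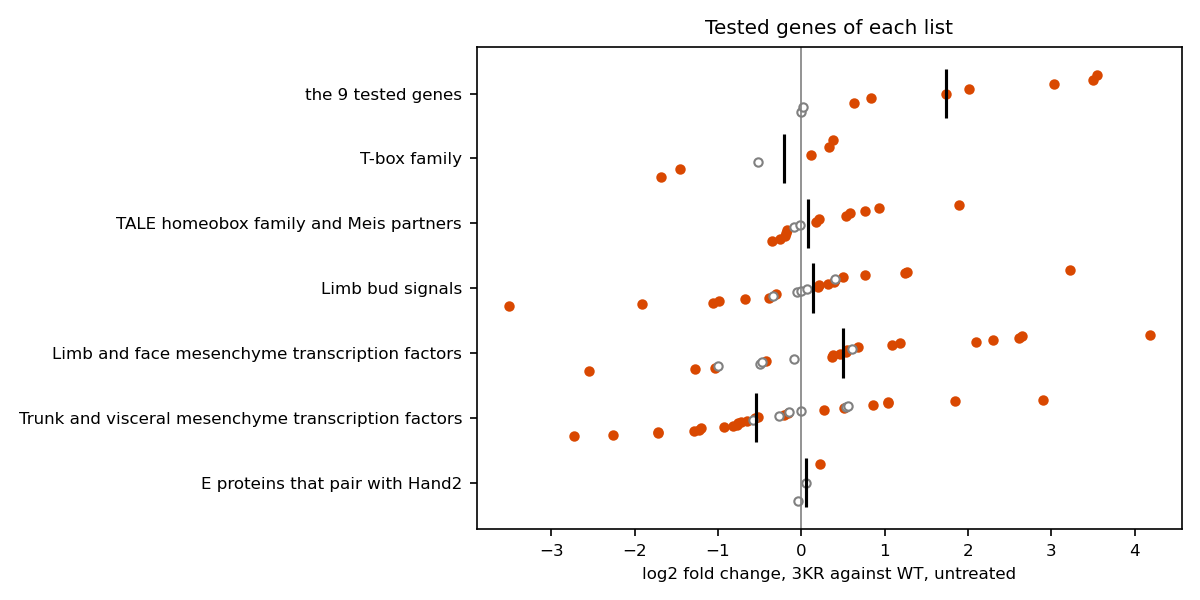
Log2 fold change of 3KR against WT without treatment for the tested genes of each list, with filled points for adjusted p under 0.05, open points for the rest and a bar at the median. The medians are 1.73 for the 9 tested genes, 0.50 for the limb and face list and -0.54 for the trunk and visceral list.

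Several lists of cell type markers differed between genotypes too, in a comparison where 22.1% of all tested genes were called higher and 23.6% lower. Without treatment all 6 macrophage markers were higher in 3KR MEFs, and their summed level was 6473 to 6516 normalized counts against 3202 to 3699 in WT. Of 7 Schwann cell and neural crest markers 5 were lower, with a sum of 1613 to 1655 against 7719 to 8047, and Sox10 differed by -2.39 ± 0.07 SE. The sum of 8 skeletal muscle markers was 1972 to 2119 in 3KR and 5189 to 5481 in WT, with 2 of the 3 tested lower and Myod1, Myog, Myf5, Pax7 and Ckm not passing the filter. Most of that sum was Des, at 1589 ± 57.5 SD in untreated 3KR and 4583 ± 113 SD in untreated WT, which is also among the pericyte and smooth muscle markers. Cartilage markers were mixed, 4 of 7 higher and 1 lower, since Acan was higher by 2.68 ± 0.05 SE and Col2a1 lower by a log2 fold change of -1.23 ± 0.03 SE. Of 11 fibroblast markers 9 were higher and 2 lower, and Pdgfra rose by 1.67 ± 0.03 SE.

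Heart muscle and mesothelium are of interest because Tbx5, Hand2, Tbx18 and Tbx20 act there. Of 7 heart muscle markers 2 were tested and neither was called without treatment. Nkx2-5, Myh6, Myh7, Nppa and Myl7 did not pass the filter, and the sum was 193.9 to 274.9 in untreated WT and 230.9 to 243.7 in untreated 3KR samples. After NCS 1 of the 2 was called higher in 3KR, against 22.9% of all tested genes. The sums still overlapped, at 233.7 to 254.5 in WT and 215.8 to 259.5 in 3KR samples. Of 7 mesothelial and epicardial markers 2 were higher and 2 lower without treatment, near the shares of all tested genes (22.1% and 23.6%). Their sums were 961.5 to 976.8 in untreated WT and 773.8 to 808.1 in untreated 3KR samples. These markers moved apart, since Krt19, a keratin, had 436.2 to 456.4 normalized counts in untreated WT and 210.9 to 266.2 in untreated 3KR samples, while Lrrn4 had 0.829 to 1.04 and 24.2 to 37.3, and Bnc1 had 44.7 to 52.8 and 80.1 to 98.2. Lrrn4 had a raw count of 1 in each untreated WT sample and passed the filter only through 3KR samples, so its direction was set in advance. After NCS 3 of the 7 were higher and 1 lower, against 22.9% and 23.6% of all tested genes, with a median log2 fold change of 1.08. Of 8 pericyte and smooth muscle markers 1 was higher and 5 lower. Endothelial markers gave 0 higher and 1 lower of 5 tested, no more than the untreated shares of all tested genes. Epithelial markers gave 2 higher and 1 lower of 3 tested, and Epcam, Krt5 and Krt14 did not pass the filter. The 2 higher, Cdh1 and Krt8, had raw counts of only 5 to 13 and 1 to 4 in untreated WT. Krt8 passed the filter only through its 3KR samples, so its direction was set in advance. The epithelial sum was 95.4 to 97.8 in untreated WT and 113.4 to 122.9 in untreated 3KR samples. Neuronal markers gave 0 higher and 2 lower of 3. The part of these cell types in the levels of the 10 genes was not tested.

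The genes most like each of the 9 over the 12 samples, by Pearson's r of log2 CPM against 15318 other genes, followed the 2 patterns seen above. Tbx4 and Pitx1 were most like Crispld2 (r = 0.995 and 0.997), with Rtl3 next for Tbx4 and Hs6st1 next for Pitx1. Tbx5 was most like Lhx9 (r = 0.998) and Slit3, Tbx15 like Myo7a (r = 0.998) and Zfp521, and Hand2 like Pcdha11 (r = 0.996) and Sorcs2. Tbx18 was most like Xist (r = 0.994) and Cdh3, and Emx2 like Lgals3bp (r = 0.995) and Xist (r = 0.994). For these 7 genes the r is set mainly by the gap between genotypes, which all such pairs share. Meis1 was most like Lrrcc1 (r = 0.968) and Sh3bp5, and Meis2 like Exoc6b (r = 0.977) and Ckap5, genes whose untreated log2 fold changes between genotypes lay from -0.09 to 0.01.

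Other annotated neighbours were scarce where counted. Gm16140, antisense to Meis1 with 896 shared exonic bases, had 0 to 4.06 normalized counts over the 12 samples, and G630016G05Rik, which starts 1386 bases from Meis2 on the other strand, had 3.02 to 20.3. Gm16141, also antisense to Meis1 but with no shared exonic base, had 0 to 6.37. All are small beside the levels of Meis1 and Meis2. Shared exonic bases were also annotated for neighbours whose counts are not given here. These were D030062O11Rik with Tbx18 (970 bases), Hand2os1 with Hand2 (461), Gm47071 and Gm28760 with Pitx1 (165 and 108) and Gm37818 with Meis1 (1029). The part of reads of such bases in the levels of these members was not tested.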

How the data were processed

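Raw counts per Ensembl gene were used, 1 file per sample for 12 samples. The authors deposited these counts neither normalized nor filtered. The submitters' notes name TopHat, HTSeq, DESeq and the mm9 build, without versions. The libraries were stranded and poly(A)-selected, and whether counting used the strand is not given in the sources used here. The count files hold no coordinates. Names, strands and exon lengths came from GENCODE M21 (GRCm38) by gene ID, which matched 32919 of 37991 IDs and not 5072. Promoter sequences and their coordinates came from RefSeq (GRCm38.p6), not from mm9.

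Groups came from the sample labels. Genes were filtered with filterByExpr, scaled by TMM and fitted in edgeR 4.0.16 (R 4.3.3) with 1 coefficient per group over all 12 samples, and contrasts were tested by its quasi-likelihood F test. A gene counted in 1 genotype only passes this filter through that genotype, which sets the direction of its change in advance. The p-values were two-sided and adjusted by Benjamini-Hochberg over 15327 genes, and those under 0.05 were called. Levels are given as counts over the size factor of DESeq2 1.42.0 (normalized counts), and log2 CPM used a prior count of 2. Depth was 33203757 to 45279321 counts per sample, and the common biological coefficient of variation was 3.95%. Limits from counts cover counting error only. The fits were tested on simulated data.

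The members and lists were chosen with earlier results of these data known. The text names all 10 members, the 3 genes of lowest p in each list (for the marker lists, examples among them), the 2 genes most like each member and those annotated neighbours whose counts were analysed here. Isl1, Lmx1b, Dlx1, Msx2 and Dlx2 were named after their values were seen. The result of 1 gene that this rule names is not reported here. A further promoter motif was searched and then dropped, because the letters written for it did not have the spacing of the site they stood for.

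Same-numbered untreated and treated WT samples deviated together from their group means (r = 0.267, 0.234 and 0.468 over 9602 genes). In 3KR they did not (r = 0.001, 0.050 and 0.002). Samples of different numbers were not compared in this way. The samples numbered 3 stand apart in both WT groups, which shifts both group means, so these values do not show whether the other WT samples are paired. A fit with the sample number as a replicate block was an alternative, within each genotype for NCS and across genotypes for the genotype comparisons. The others were DESeq2's size factors and Wald test, 2 other filters, only the 6 samples compared, and each sample left out. Leaving out both WT samples numbered 3 was added after seeing the data.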

Additional observations from a re-analysis of the deposited data

How the results depend on the processing

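Signs were compared on rounded values, so a main value that rounds to 0 could not count as a change of sign. Over 45 log2 fold changes and their alternatives, 605 of 621 values kept their direction in this sense and their side of the threshold. Of the rest, 5 passed where they had not, 1 was lost and 10 changed sign, none of these with a called value. The number of the 9 genes called was 7 and 8 between genotypes and 3 and 4 for NCS in WT and 3KR, also in the fits with a replicate block. For the difference in response it was 0, but 1 with the replicate block, 1 without both WT samples numbered 3, and 0 to 1 when each sample was left out in turn. The gene was Meis2 each time. Over all genes that comparison called 572, but 1379 with the replicate block, 1842 without both WT samples numbered 3 and 345 to 1159 with 1 sample left out. The cause was not tested.

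With 1 sample left out, values near 0 changed sign. The log2 fold change between untreated genotypes ran from -0.015 to 0.076 for Meis2. For NCS in WT it ran from -0.21 to 0.10 for Hand2, which was 0.22 without both WT samples numbered 3. For NCS in 3KR it ran from -0.03 to 0.031 for Tbx18 and from -0.071 to 0.024 for Emx2. The difference in response of Hand2 ran from -0.30 to 0.01. For 2 main values that round to 0, sign changes were not counted above. Over all alternatives the difference in response of Pitx1 ran from -0.107 to 0.125. The log2 fold change of Meis1 between untreated genotypes ran from -0.018 to 0.029. TMM scaling moved none of 36 group levels by more than 1 SD, scaling by library total moved 5, and the longest transcript as length moved 4 of 9 levels per kilobase. WT counts of Tbx4, Tbx5, Pitx1 and Hand2 were 36 to 84 per sample, and the part of this depth in their missing NCS calls was not tested.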
